A study of Mus musculus with 8 samples.

Results

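Of 54532 genes in the count table of lactating mouse intestinal epithelium, 67 protein-coding genes carried a GENCODE M21 symbol of the UDP-glucuronosyltransferases (UGT), the glutathione S-transferases (GST, with the microsomal MGST) or the sulfotransferases (SULT). Of these, 36 had 20 or more counts summed over the 8 libraries and are described here, which were 9 of 21 UGT genes, 23 of 25 GST and MGST genes and 4 of 21 SULT genes. They were chosen by symbol and by total count, without regard to genotype. The members just inside the count limit were Ugt1a6a with 41 counts and Gstp3 with 45 counts, and those just outside it were Ugt2b38 with 19, Sult1c2 with 14 and Sult1a1 with 13. A further 20 genes of the families had 0 counts in all libraries, among them all Sult2a genes, Sult1e1 and both Ugt3a genes. For a gene whose 3′ end is its own, a count of 0 allows a level of up to 0.139 CPM over the pooled totals of the 8 libraries, which covers counting error only. All other CPM are counts over library sizes scaled by TMM, which evens out differences in composition. The limit does not hold for Ugt1a10, Ugt2a1, Ugt2a2 and most Sult2a genes, whose 3′ ends share sequence with other genes, so that their reads can be left out of the counts.

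Phase II conjugation makes foreign and endogenous compounds more soluble in water, so that they can be carried out of the cell. UGT enzymes sit in the endoplasmic reticulum and transfer glucuronic acid from UDP-glucuronic acid, SULT enzymes are cytosolic and transfer sulfate from the donor PAPS, and GST enzymes join glutathione to electrophiles or use it to reduce peroxides. Enterocytes, the absorptive cells of the villus, are a site of conjugation of drugs, dietary phenols and bile pigments before these reach the blood.

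Intestinal epithelial cells were collected from dams at lactation day 5. The 4 WT and 4 Rank-knockout samples were female mice on a C57BL/6J background, and per the study's methods the knockout was made with a floxed Rank allele and a Cre driven by the Villin1 promoter, which acts in the intestinal epithelium, with littermates as controls. Rank, with the gene symbol Tnfrsf11a, encodes the receptor of the cytokine RANKL. Only a broad age range for the mice of the whole study was given, and the stretch of intestine used for these libraries was not given in the sources used here, nor were the alleles that the WT littermates carried. Messenger RNA was read from its 3′ end with a kit that yields about 1 tag per transcript whatever its length, so that levels of different genes are compared here as tags without division by length.

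Total counts ran from 1530781 to 4335653 per library. Tnfrsf11a itself had overlapping genotypes and a log2 fold change of -0.67 ± 0.22 (SE; adjusted p = 0.0322 in edgeR), and because the tags need not lie in the deleted exons this checks nothing about the labels. Markers of villus enterocytes were measured in every library, and hepatocyte markers, which would mark liver as another source of conjugating enzymes, summed to 2.88 to 8.92 CPM with Tat and Serpina1a at 0. Rank-knockout replicate 1 stood apart for most members: it was the lowest Rank-knockout library for 29 of the 34 tested members (85.3%), for 48.5% of all genes called lower and for 25.4% of all tested genes. It also had the lowest summed level of villus enterocyte markers, 16146 CPM, and the highest of replication and cell cycle markers, 2359 CPM. WT replicate 2, the deepest WT library, differed more from the other WT libraries (chi-square per degree of freedom of 9.16 to 14.9, a measure that grows with depth) than these did from each other (4.57 to 6.23). The part of these libraries in the results was not tested beyond the values given without them.

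The sequences shown first are promoters of members that share a motif. The promoters of Ugt1a1 and Sult1d1, both lower in Rank-knockout, each held the letters GTTAAT, the core of the site bound by HNF1 factors of intestine and liver, on either strand. The 250 bases before the start are given from RefSeq (GRCm38.p6), 5′ to 3′ on the gene's strand, with the match in capitals. In Ugt1a1 (chr1:88211709-88211958, plus strand) the match ran from -41 to -36 relative to the start and lay on the reverse strand, and in Sult1d1 (chr5:87569007-87569256, minus strand) it ran from -79 to -74 on the forward strand.
Ugt1a1 promoter: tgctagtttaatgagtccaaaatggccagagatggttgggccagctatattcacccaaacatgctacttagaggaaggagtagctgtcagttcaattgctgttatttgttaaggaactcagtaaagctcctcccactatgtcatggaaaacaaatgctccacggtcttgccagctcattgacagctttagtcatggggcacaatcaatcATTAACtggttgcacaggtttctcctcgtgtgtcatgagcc
Sult1d1 promoter: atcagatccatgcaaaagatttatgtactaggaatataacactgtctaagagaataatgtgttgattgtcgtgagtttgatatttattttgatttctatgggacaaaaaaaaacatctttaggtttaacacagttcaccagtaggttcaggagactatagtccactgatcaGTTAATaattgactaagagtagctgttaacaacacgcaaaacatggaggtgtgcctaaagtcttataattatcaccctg
The letters GTTAAT were in 7.10% of the 32851 RefSeq windows of all genes, each 250 bases before to 50 after a start, and in 11.4% of the 44 windows of 34 members, in Ugt1a1, Ugt1a6a, Ugt2a3, Sult1d1 and Gsta3. CAAAGTCCA, a repeat bound by HNF4, was in 0.475% of all windows and in 1 member window, that of Sult1b1. The core of the antioxidant response element read by NRF2, TGACNNNGC, was in 12.4% of all windows and 9.09% of member windows, and of the members lower in Rank-knockout Gstm7 alone held it. GCGTG, the core of the element read by the aryl hydrocarbon receptor, was in 32.4% of all windows and 29.5% of member windows. Both strands were searched. Matches of different motifs can overlap, and a match of TGACNNNGC can contain GCGTG on the opposite strand. Gsta4 and Gstt2 had no window.

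Where conjugating enzymes passed the test, they were lower in the epithelium of Rank-knockout dams. Of the 34 members tested, 13 were lower and 0 were higher at an edgeR adjusted p under 0.05, which is 38.2% of them, where 14.6% of all 9855 tested genes were lower and 15.8% were higher by the same rule. At an unadjusted p under 0.05, 19 members were lower and 0 higher in edgeR, and DESeq2 and limma-voom also called 0 members higher. The log2 fold change was negative for 31 members (91.2%) and for 48.3% of all tested genes, and the median was -0.73 over the members and 0.02 over all tested genes. All 4 Rank-knockout libraries lay below all 4 WT libraries for 14 members (41.2%), where 14.3% of all tested genes did so. Without Rank-knockout replicate 1, 11 members were lower at a background of 11.2% of all genes, and without that library and WT replicate 2 together 11 were lower at 14.1%. With library totals in place of TMM scaling, which shifted the median of all genes to 0.22, 8 members were lower and 0 higher, where 859 of all genes were lower and 2566 higher. In these bulk samples, fewer cells that make an enzyme and less RNA per cell cannot be told apart.

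**Figure D1:**
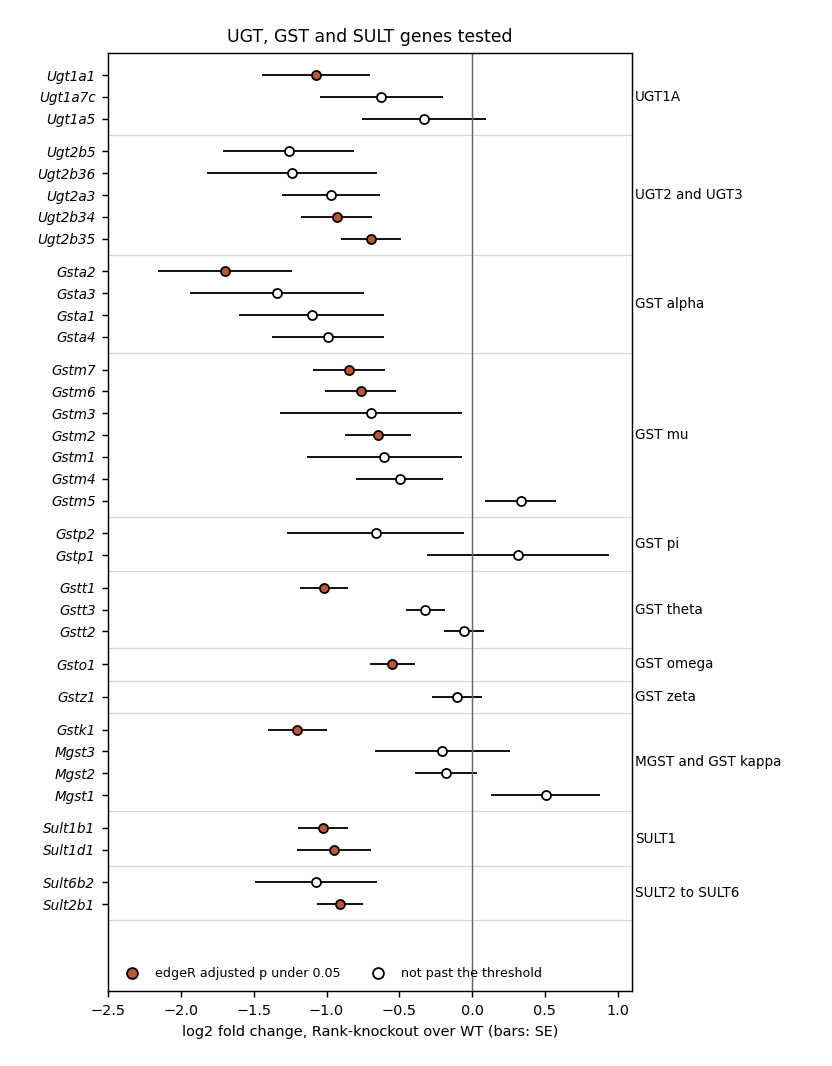
Log2 fold change of each tested member, Rank-knockout over WT, from edgeR, grouped by family on the y axis. Points are estimates, bars are 1 SE, and filled points passed an adjusted p of 0.05. The 13 filled points lie between -1.70 for Gsta2 and -0.55 for Gsto1, and the 3 points right of zero are Gstm5, Gstp1 and Mgst1, none of them filled.

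Summed over the 36 members, the level was 5037 ± 761 CPM (SD, n = 4) in WT against 2974 ± 657 CPM in Rank-knockout, 59.0% of the WT mean, and the genotypes did not overlap. The SULT sum was at 49.0% of WT, the UGT sum at 53.1% and the GST sum at 68.1%, each without overlap between the genotypes. The sums of SULT2 to SULT6 (48.2% of WT) and of UGT1A (69.4%) overlapped. Overlap of sums was judged on TMM-scaled CPM only. Within the GST superfamily, alpha class members summed to 47.8% of the WT mean, theta class members to 78.2% and the single omega member to 68.2%, all without overlap. The alpha margin was small, with 241 CPM in WT replicate 3 and 236 CPM in Rank-knockout replicate 3. Mu class members summed to 64.4%, MGST and kappa members together to 76.6%, zeta to 93.9% and pi to 95.7%, and these 4 groups overlapped. The mu sum was 192 CPM in Rank-knockout replicate 1 and 483 to 891 CPM in the other Rank-knockout libraries. For MGST and kappa it was 271 CPM against 413 to 555 CPM, so that replicate 1 lowered both percentages. A sum is carried by its most abundant genes, which were Sult6b2, Sult1b1, Ugt2b34 and Gstm3 here.

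**Figure D2:**
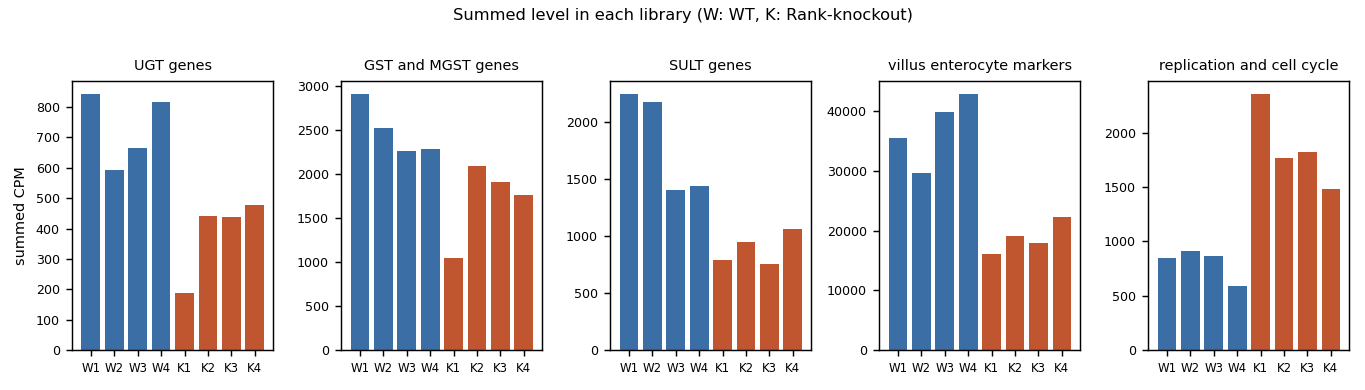
Summed CPM of the UGT, GST with MGST, and SULT members, and of villus enterocyte and of replication and cell cycle markers, 1 bar per library (W, WT; K, Rank-knockout). The UGT sum was 593 to 843 CPM in WT and 188 to 479 CPM in Rank-knockout, and K1 has the shortest UGT, GST and villus bars and the tallest cell cycle bar of the Rank-knockout libraries.

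The sulfotransferases were represented by 4 genes, all with negative fold changes. Sult1b1 (ENSMUSG00000029269; chromosome 5, 87513339 to 87538195, minus strand), which sulfates thyroid hormones and small phenols, had 571, 563, 636 and 624 CPM in WT replicates 1 to 4 and 194, 352, 299.7 and 334 CPM in the Rank-knockout replicates. The libraries of the genotypes were far apart, and the lowest of them was Rank-knockout replicate 1. The means were 598 ± 37.0 CPM (WT) and 295 ± 70.5 CPM (Rank-knockout), with the SD of 4 libraries each, and the log2 fold change was -1.02 ± 0.17 (SE; adjusted p = 0.000667 in edgeR). Its neighbour Sult1d1 (ENSMUSG00000029273; chromosome 5, 87554645 to 87569027, minus strand), which sulfates catecholamines and eicosanoids, had 232, 178, 236 and 195 CPM across WT and 51.2, 128, 119 and 139 CPM in Rank-knockout. Again the genotypes were separate, with Rank-knockout replicate 1 lowest. This gave a log2 fold change of -0.95 ± 0.25 (SE; adjusted p = 0.0140 in edgeR). The ratio of these neighbours on the log2 scale differed between the genotypes by -0.02 (exact permutation p = 0.943).

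Sult2b1 (ENSMUSG00000003271; chromosome 7, 45729983 to 45784669, minus strand), which sulfates cholesterol and pregnenolone, had 89.0, 81.4, 112 and 90.5 CPM across WT and 43.4, 53.2, 45.5 and 55.7 CPM in Rank-knockout. Here the Rank-knockout libraries lay close together and all below WT. Its log2 fold change was -0.91 ± 0.16 (SE; adjusted p = 0.000757 in edgeR). Sult6b2 (ENSMUSG00000048473; chromosome 6, 142785204 to 142804502, minus strand) had the highest mean level of all members, with 1350.2, 1347, 415 and 524 CPM across WT and 496, 414, 289 and 534 CPM in Rank-knockout. WT replicates 1 and 2 were far above WT replicates 3 and 4, which lay within the Rank-knockout range, so that the genotypes overlapped. In WT replicates 3 and 4 Sult1b1 was higher than Sult6b2, and in Rank-knockout replicates 2 and 3 Gstm3 was. The log2 fold change of -1.07 ± 0.42 (SE; adjusted p = 0.0884 in edgeR) did not pass the threshold. It was -1.33 (adjusted p = 0.0140) without WT replicate 3, which did pass, and -0.82 (adjusted p = 0.221) without WT replicate 2. The remaining SULT genes had 14 counts or fewer in all, including Sult1a1, the main phenol sulfotransferase of liver, with 13.

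The UGT2 genes of the chromosome 5 cluster gave nearly all counts assigned to UGT genes. Reads of the UGT1A genes can be left out of the counts, as described below. Ugt2b34 (ENSMUSG00000029260; chromosome 5, 86889767 to 86906937, minus strand), the most abundant UGT gene, had 579, 349, 470.2 and 545 CPM across WT and 134, 286, 275 and 325 CPM in Rank-knockout. WT replicate 2 was the lowest WT library and still lay above every Rank-knockout library. The means were 486 ± 102 CPM (WT) and 255 ± 83.5 CPM (Rank-knockout), with the SD of 4 libraries each, giving a log2 change of -0.93 ± 0.24 (SE; adjusted p = 0.0120 in edgeR). Ugt2b35 (ENSMUSG00000035811; chromosome 5, 87000860 to 87013275, plus strand) was much lower in level, with 31.9, 28.2, 22.4 and 29.7 CPM across WT and 12.6, 17.9, 19.2 and 20.1 CPM in Rank-knockout. Its genotypes did not overlap either. Its change of -0.70 ± 0.21 (SE; adjusted p = 0.0185 in edgeR) on the log2 scale passed the threshold, but it did not without Rank-knockout replicate 1, -0.55 (adjusted p = 0.0682), with library totals, -0.50 (adjusted p = 0.0727), or with every library thinned to the shallowest total, -0.52 (adjusted p = 0.111).

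The other 3 UGT2 members tested had log2 fold changes of -0.97 for Ugt2a3, -1.24 for Ugt2b36 and -1.26 for Ugt2b5 and did not pass, with edgeR adjusted p from 0.0528 to 0.122. Ugt2b5 did pass under DESeq2, limma-voom, no filter and thinning, and without WT replicate 3 or Rank-knockout replicate 2. Ugt2a3 was singled out after its values were seen, because its genotypes did not overlap and yet the test missed the threshold. It had 169, 143, 144 and 186 CPM across WT and 29.5, 95.3, 107 and 98.3 CPM in Rank-knockout, where replicate 1 lay far under the other libraries. Without that library the log2 fold change was smaller, -0.67 (adjusted p = 0.00586), and passed.

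The UGT1A locus holds the bilirubin-conjugating enzyme Ugt1a1 among its 9 genes, each of which joins upstream exons to common downstream exons. In the annotation Ugt1a6a and Ugt1a6b also share upstream exon bases with Ugt1a7c. The 9 genes gave only 547 counts over all libraries, of which Ugt1a7c had 230, Ugt1a5 147, Ugt1a1 118 and Ugt1a6a 41, and the other 5 genes had 7 or fewer. The common exons held 1311 bases, and between 54.6% and 90.7% of the exonic bases of each gene were shared with another UGT1A gene. For 7 of the 9 genes all of the last 400 transcript bases, where 3′ tags fall, lay in exons of the others, and for Ugt1a7c, whose annotated last exon runs on past the rest, it was 50.0%. A read in the shared part matches several genes, and the counter leaves such reads out unless told otherwise. The setting used was not given in the sources used here, so the level of the locus and its split between first exons are uncertain.

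**Figure D3:**
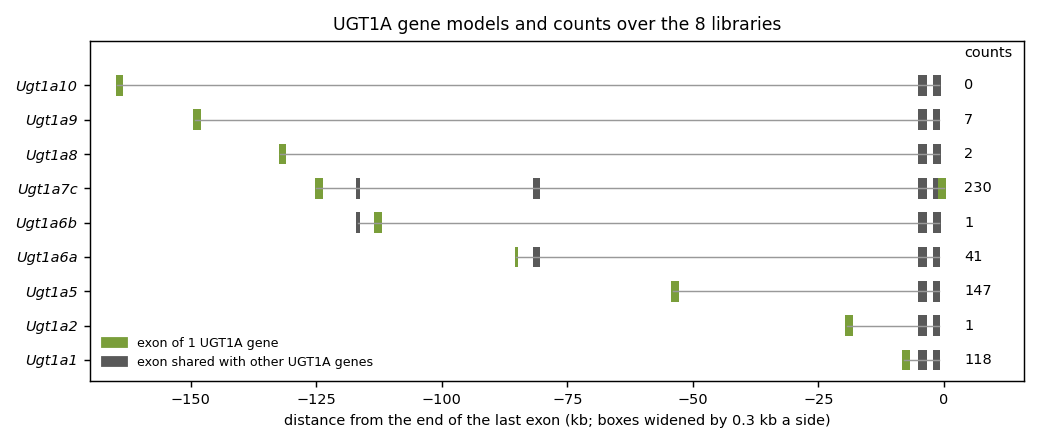
Exons of the 9 UGT1A genes by distance in kb from the end of the last exon, with exons of 1 gene in green and shared exons in grey, and the counts over the 8 libraries at the right. Every gene ends in the same grey exons, Ugt1a7c alone has a green stretch at its 3′ end, and it has the most counts, 230.

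Within those limits, Ugt1a1 (ENSMUSG00000089960; chromosome 1, 88211959 to 88218997, plus strand) had 6.80, 10.3, 5.42 and 7.26 CPM across WT and 1.68, 5.21, 4.46 and 4.18 CPM in Rank-knockout, from 8 to 41 counts a library. The genotypes did not overlap, and the log2 fold change was -1.07 ± 0.37 (SE; adjusted p = 0.0380 in edgeR). This call was among the least stable of the members. It was lost without any of WT replicates 1, 2 or 4 or Rank-knockout replicates 1 or 3, with log2 fold changes from -1.14 to -0.76 and adjusted p from 0.0546 to 0.160, and also under DESeq2, with library totals and with totals that leave out the 50 most abundant genes. Ugt1a7c (ENSMUSG00000090124; chromosome 1, 88095062 to 88220002, plus strand) had 19.0, 17.3, 3.39 and 10.6 CPM across WT and 4.21, 7.82, 8.92 and 13.3 CPM in Rank-knockout, with WT replicate 3 the lowest of all libraries. Its log2 fold change of -0.62 ± 0.43 (SE; adjusted p = 0.290 in edgeR) did not pass, nor did that of Ugt1a5, -0.33 ± 0.42 (SE; adjusted p = 0.589 in edgeR). Ugt1a6a was too sparse to be tested and had 1, 11, 4 and 5 counts in WT and 4, 7, 3 and 6 in Rank-knockout.

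Among the glutathione S-transferases, 7 of the 22 members tested were lower, where 14.6% of all tested genes were. The alpha class is known for reducing lipid hydroperoxides, and 1 of its 4 members was lower. Gsta2 (ENSMUSG00000057933; chromosome 9, 78331018 to 78355788, minus strand) had 13.6, 14.8, 7.45 and 3.30 CPM across WT and 1.26, 2.61, 5.35 and 4.18 CPM in Rank-knockout. WT replicates 1 and 2 stood above the rest, and WT replicate 4 fell within the Rank-knockout range. Its log2 change was -1.70 ± 0.46 (SE; adjusted p = 0.0118 in edgeR), and without WT replicate 2 it was -1.35 (adjusted p = 0.0519) and did not pass. Gsta1 (ENSMUSG00000074183; chromosome 9, 78230656 to 78242684, plus strand), the most abundant alpha gene, had 294, 333, 156 and 170.4 CPM across WT and 32.0, 143, 149 and 126 CPM in Rank-knockout. No library of one genotype reached the other, but Rank-knockout replicate 1 was far lower than the next. The change of -1.10 ± 0.50 (SE; adjusted p = 0.137 in edgeR) on the log2 scale did not pass, and it was -0.78 (adjusted p = 0.0427), which did pass, without that library. Gsta3 and Gsta4, the latter an enzyme for the lipid aldehyde 4-hydroxynonenal, had log2 fold changes of -1.34 and -0.99 and did not pass (edgeR adjusted p = 0.119 and 0.0805).

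Alpha class paralogs are close in sequence. Of the 50-base words in the last 400 bases of Gsta1 transcripts, 87.2% occurred in transcripts of another gene, chiefly Gm3776, Gsta2 and Gm10639, and for Gsta2 this was 55.7%. Counts of these genes can therefore be lost or split, and their values are uncertain, as are those of Gstp1 (78.3%) and Gstp2 (63.1%). Sharing was 24.1% for Gstm1, 24.9% for Gstt3, which overlaps Gm20441, 13.3% for Gstm6 and at most 2.35% for each of the other GST members and for all SULT and UGT2 members.

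The mu class forms a cluster of 7 genes on chromosome 3, and 3 of them were lower, against the same background of 14.6% of all tested genes. Gstm7 (ENSMUSG00000004035; chromosome 3, 107926334 to 107931817, minus strand) had 27.9, 29.2, 30.5 and 23.1 CPM across WT and 8.84, 20.8, 19.2 and 14.4 CPM in Rank-knockout. All Rank-knockout libraries lay below WT. The change of -0.85 ± 0.25 (SE; adjusted p = 0.0166 in edgeR) on the log2 scale passed, and without Rank-knockout replicate 1 it was -0.62 (adjusted p = 0.0518) and with thinning -0.58 (adjusted p = 0.118), and passed in neither. Gstm6 (ENSMUSG00000068762; chromosome 3, 107938847 to 107943749, minus strand) had 65.2, 56.6, 47.4 and 63.4 CPM across WT and 16.8, 41.7, 41.5 and 38.7 CPM in Rank-knockout, also without overlap. Its log2 fold change was -0.76 ± 0.24 (SE; adjusted p = 0.0275 in edgeR), and it did not pass without WT replicate 1, -0.73 (adjusted p = 0.0673), or without WT replicate 4, -0.75 (adjusted p = 0.0655). Nor did it pass with library totals, -0.57 (adjusted p = 0.0781), or with totals that leave out the 50 most abundant genes, -0.64 (adjusted p = 0.0566). Gstm2 (ENSMUSG00000040562; chromosome 3, 107981702 to 107986453, minus strand) had 125, 110.1, 78.6 and 68.7 CPM across WT and 44.9, 68.1, 85.6 and 49.2 CPM in Rank-knockout, and here the genotypes overlapped. The log2 fold change of -0.65 ± 0.23 (SE; adjusted p = 0.0424 in edgeR) passed narrowly and was lost without any one of 5 libraries, WT replicates 1 and 2 and Rank-knockout replicates 1, 2 and 4, where it ran from -0.70 to -0.51 with adjusted p from 0.0638 to 0.128. It was also lost with library totals, -0.45 (adjusted p = 0.134), without the 50 most abundant genes in the library sizes, -0.52 (adjusted p = 0.0918), and with thinning, -0.54 (adjusted p = 0.0669).

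Gstm3 (ENSMUSG00000004038; chromosome 3, 107963696 to 107969283, minus strand) had the highest mean level of the GST genes, with 658, 407, 324 and 366 CPM across WT and 48.2, 433, 354 and 254 CPM in Rank-knockout. Rank-knockout replicate 1 held a fraction of any other library, and Rank-knockout replicate 2 was second only to WT replicate 1. Its change was -0.69 ± 0.62 (SE; adjusted p = 0.450 in edgeR) on the log2 scale and, without Rank-knockout replicate 1, -0.33 (adjusted p = 0.364). Gstm1 and Gstm4 did not pass, at -0.60 and -0.50 (edgeR adjusted p = 0.437 and 0.224). Without Rank-knockout replicate 1 they were at -0.30 and -0.23. Without Rank-knockout replicate 2 they were at -1.14 and -0.80 (edgeR adjusted p = 0.0720 and 0.0510). Gstm5 had the only positive value of the class, 0.33 ± 0.24 (SE; adjusted p = 0.318 in edgeR). Against its neighbour Gstm7, the log2 ratio of Gstm5 was higher in Rank-knockout by 1.22 with no overlap of libraries (exact permutation p = 0.0286, the smallest these 8 libraries allow, and 0.136 after Benjamini-Hochberg adjustment over 19 pairs of neighbours).

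The theta members are neighbours on chromosome 10, and 1 of the 3 was lower, where 14.6% of all tested genes were. Gstt1 (ENSMUSG00000001663; chromosome 10, 75783813 to 75798584, minus strand), which acts on small halogenated compounds, had 78.8, 98.5, 73.8 and 97.7 CPM across WT and 35.2, 49.1, 47.7 and 41.8 CPM in Rank-knockout. The libraries were tightly grouped within each genotype and far from overlap. The means were 87.2 ± 12.8 CPM (WT) and 43.5 ± 6.37 CPM (Rank-knockout), with the SD of 4 libraries each, and the log2 fold change was -1.02 ± 0.16 (SE; adjusted p = 0.000552 in edgeR). Gstt3 (ENSMUSG00000001665; chromosome 10, 75774115 to 75781414, minus strand), the most abundant theta gene, had 187, 234, 221 and 188 CPM across WT and 161, 163, 162 and 179 CPM in Rank-knockout. These did not overlap, by a small margin, and the log2 fold change of -0.32 ± 0.13 (SE; adjusted p = 0.0757 in edgeR) did not pass. Gstt2 had means of 113 ± 11.7 CPM (WT) and 109 ± 7.99 CPM (Rank-knockout), with the SD of 4 libraries each, and a log2 fold change of -0.06 ± 0.14 (SE; adjusted p = 0.792 in edgeR) that turned positive, 0.14, when library totals replaced TMM scaling. The log2 ratio of Gstt1 to Gstt2 was lower in Rank-knockout by 0.95 and that of Gstt3 to Gstt1 was higher by 0.69. In both pairs the genotypes did not overlap, with an exact permutation p of 0.0286, or 0.136 after adjustment over the 19 pairs, so that neither passed.

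**Figure D4:**
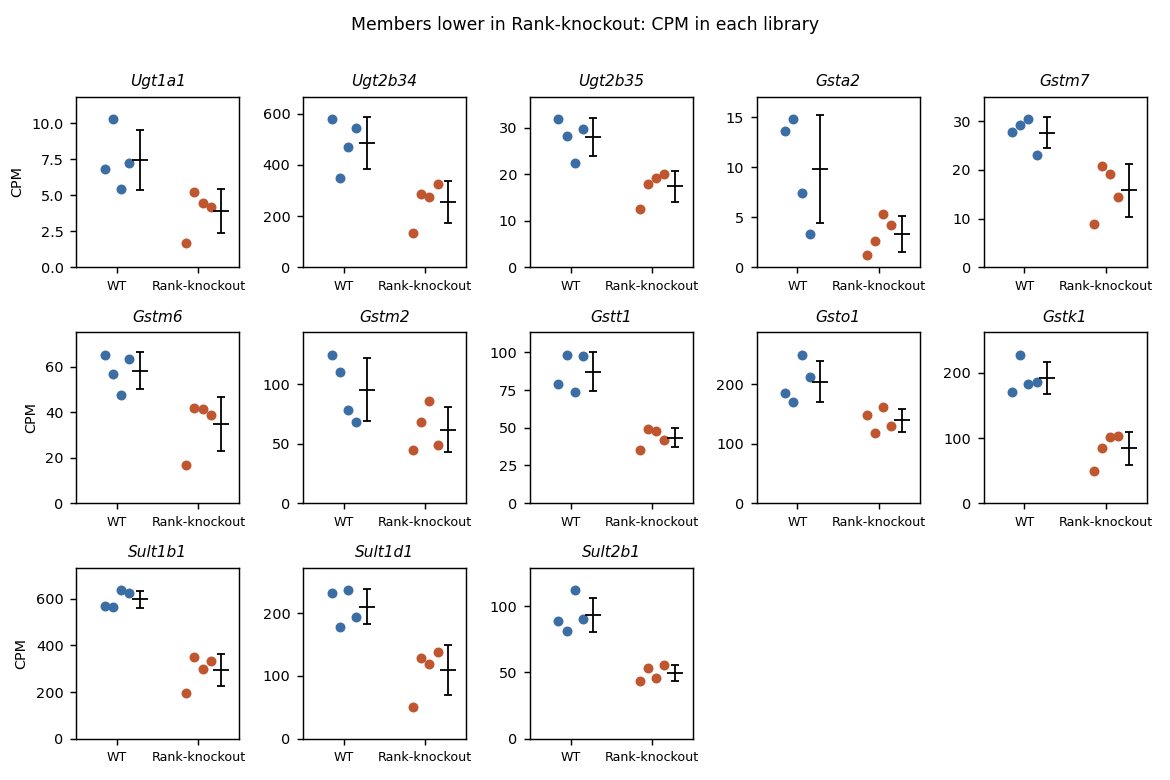
CPM of the 13 members lower in Rank-knockout, 1 point per library with the mean and SD beside each group (n = 4), on axes that start at 0. In 11 panels the groups are separate, and in those of Gsta2 and Gstm2 they overlap.

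Outside the large classes, Gstk1 (ENSMUSG00000029864; chromosome 6, 42245935 to 42250447, plus strand), the kappa enzyme of mitochondria and peroxisomes, had 171, 228, 184 and 186 CPM across WT and 48.6, 84.9, 101 and 103 CPM in Rank-knockout. Every Rank-knockout library was well below every WT library. The means were 192 ± 24.9 CPM (WT) and 84.2 ± 25.0 CPM (Rank-knockout), with the SD of 4 libraries each, 43.8% of WT, and the log2 fold change was -1.20 ± 0.20 (SE; adjusted p = 0.000748 in edgeR). Gsto1 (ENSMUSG00000025068; chromosome 19, 47854970 to 47864790, plus strand), an omega enzyme that reduces dehydroascorbate, had 186, 171, 250 and 212 CPM across WT and 149, 118, 161 and 129.7 CPM in Rank-knockout. It was the sole member of the 13 whose lowest Rank-knockout library was not replicate 1. On the log2 scale the change was -0.55 ± 0.15 (SE; adjusted p = 0.0139 in edgeR), and without Rank-knockout replicate 2 it was -0.48 (adjusted p = 0.0526). With library totals in place of TMM it was -0.35 (adjusted p = 0.0903).

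Several GST members had small fold changes that did not pass. Gstz1 (ENSMUSG00000021033; chromosome 12, 87147165 to 87164723, plus strand), the maleylacetoacetate isomerase of tyrosine breakdown, had 47.6, 53.0, 53.5 and 46.2 CPM across WT and 35.2, 52.5, 51.7 and 48.6 CPM in Rank-knockout. Apart from Rank-knockout replicate 1 the libraries of both genotypes covered the same range, and the log2 fold change was -0.10 ± 0.17 (SE; adjusted p = 0.677 in edgeR). It turned positive with library totals (0.093) and without Rank-knockout replicate 1 (0.023). Mgst2 (ENSMUSG00000074604; chromosome 3, 51660360 to 51682677, plus strand), a membrane enzyme that can make leukotriene C4, had 275, 172, 241 and 268 CPM across WT and 132, 259, 183 and 266 CPM in Rank-knockout. The groups overlapped, with a log2 fold change of -0.18 ± 0.21 (SE; adjusted p = 0.553 in edgeR) and of 0.0075 with library totals. Mgst1 had the largest positive value of the members, 0.51 ± 0.37 (SE; adjusted p = 0.337 in edgeR), and Mgst3 had -0.20 ± 0.46 (SE; adjusted p = 0.780 in edgeR), and both were lowest in WT replicate 2. Without that library Mgst1 was 0.18 (adjusted p = 0.579), less than Gstm5 at 0.30 (adjusted p = 0.438), and Mgst3 was -0.56 (adjusted p = 0.0533).

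Of the pi class, Gstp1 and Gstp2 were also lowest in WT replicate 2, while Gstp3 was not. Gstp1 (ENSMUSG00000060803; chromosome 19, 4035407 to 4037985, minus strand) had 19.7, 1.76, 13.5 and 28.4 CPM across WT and 14.95, 14.9, 16.9 and 24.3 CPM in Rank-knockout. The remaining 3 WT libraries spanned the Rank-knockout range. The log2 fold change of 0.31 ± 0.62 (SE; adjusted p = 0.747 in edgeR) became -0.21 (adjusted p = 0.587) without WT replicate 2, and that of Gstp2 went from -0.66 ± 0.61 (SE; adjusted p = 0.438 in edgeR) to -1.27 (adjusted p = 0.00933). The log2 ratio of Gstp1 to Gstp2 was higher in Rank-knockout by 0.92, with no overlap of libraries. Its exact permutation p was 0.0286, or 0.136 after adjustment over the 19 pairs, so that it did not pass. Gstp3 was too sparse to be tested and had 2, 10, 3 and 1 counts in WT and 11, 3, 1 and 14 in Rank-knockout.

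**Figure D5:**
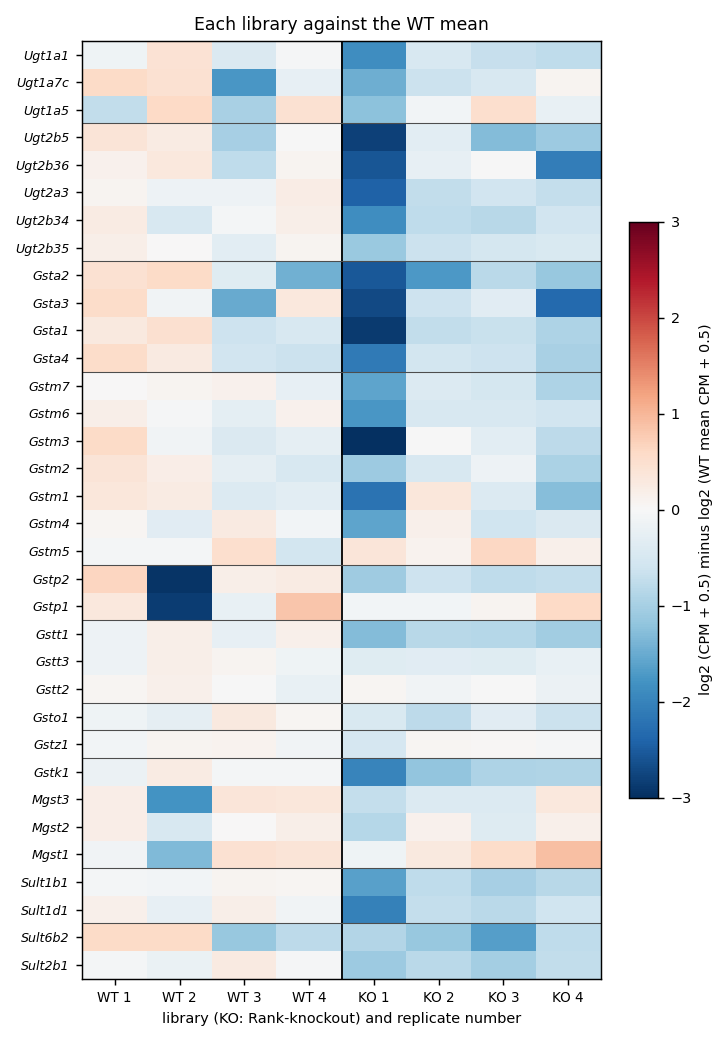
Log2 of CPM plus 0.5 in each library minus the log2 of the WT mean plus 0.5, for the 34 tested members in family order, with colours held at the ends of the scale. Blue marks lower and red higher values, and the column of Rank-knockout replicate 1 is the bluest, with 29 of 34 members at their Rank-knockout minimum there, while WT replicate 2 is blue for Gstp1, Gstp2, Mgst1 and Mgst3.

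Genes of donor supply and of glutathione turnover were examined next. For UDP-glucuronic acid supply and transport, 2 of 5 tested genes were lower and 0 higher, with a median log2 fold change of -0.33. These were Ugdh, the dehydrogenase that makes UDP-glucuronic acid, at -0.98 ± 0.18 (SE; adjusted p = 0.00107 in edgeR), and Slc35d1, which carries it into the endoplasmic reticulum, at -0.89 ± 0.20 (SE; adjusted p = 0.00364 in edgeR), and Gusb, the enzyme that removes glucuronic acid again, did not pass at 0.44 ± 0.23 (SE; adjusted p = 0.155 in edgeR). For PAPS, 3 of 9 tested genes were lower and 0 higher, with a median of -0.39. They were the synthase Papss2 at -0.93 ± 0.25 (SE; adjusted p = 0.0147 in edgeR), the sulfate transporter Slc26a2 at -0.95 ± 0.20 (SE; adjusted p = 0.00271 in edgeR) and the anion exchanger Slc26a6 at -0.91 ± 0.16 (SE; adjusted p = 0.000947 in edgeR). Of 13 tested genes of glutathione synthesis, recycling and breakdown, 7 were lower and 1 was higher, and the median was -0.55. The smallest p values there were those of Ggt1, which cleaves glutathione at the cell surface (-1.15), Gclm, the modifier subunit of the rate-limiting synthetic enzyme (-1.02), and Dpep1, which cleaves cysteinylglycine (-0.98), with edgeR adjusted p of 0.000189, 0.000206 and 0.000616. The gene that was higher was Ggct, which opens γ-glutamyl amino acids, at 0.76 ± 0.19 (SE; adjusted p = 0.00648 in edgeR). Glutathione synthetase Gss, at 0.07 ± 0.14 (SE; adjusted p = 0.741 in edgeR), and the reductase Gsr, at 0.66 ± 0.39 (SE; adjusted p = 0.236 in edgeR), did not pass.

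Of 7 tested pumps that export conjugates and drugs, 4 were lower and 0 higher, with a median of -0.88. Abcc2, the apical pump for glucuronide and glutathione conjugates, had means of 422 ± 80.9 CPM (WT) and 185 ± 54.4 CPM (Rank-knockout), with the SD of 4 libraries each, giving a log2 change of -1.20 ± 0.21 (SE; adjusted p = 0.00108 in edgeR). Abcg2, which exports sulfate conjugates, and the drug pump Abcb1a had -0.70 and -1.07 (edgeR adjusted p = 0.00552 and 0.00740). Other conjugating enzymes, of acetyl, methyl and acyl transfer, gave 4 lower and 0 higher of 7 tested, with a median of -1.02, led by Nat8, which acetylates the cysteine conjugates that follow from glutathione transfer, at -1.34 ± 0.19 (SE; adjusted p = 0.000321 in edgeR), by Nat8f2 (-2.15, a low gene at 9.94 CPM in WT) and by Nat8f1 (-1.08). The background of 14.6% lower and 15.8% higher applies to each of these lists.

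Regulators of conjugation genes gave 7 lower and 1 higher of 21 tested, with a median of -0.16, where 14.6% of all tested genes were lower and 15.8% higher. Hnf4g, an enterocyte nuclear receptor, was at -0.82 ± 0.17 (SE; adjusted p = 0.00266 in edgeR), the vitamin D receptor Vdr at -0.59 ± 0.14 (SE; adjusted p = 0.00610 in edgeR), and Nr1i3, the xenobiotic receptor CAR, at -0.75 ± 0.19 (SE; adjusted p = 0.00923 in edgeR). The one that was higher was Foxa3, at 0.71 (edgeR adjusted p = 0.0180), and the NRF2 gene Nfe2l2 did not pass, at -0.16 ± 0.15 (SE; adjusted p = 0.457 in edgeR). Of 19 tested NRF2 targets outside the 3 families, 7 were lower and 0 higher against the same background, with a median of -0.33, led by Gclm, Osgin1 (-0.96) and the sulfiredoxin Srxn1 (-0.67). Nqo1, a gene commonly used to read NRF2 activity, had -0.17 ± 0.20 (SE; adjusted p = 0.543 in edgeR).

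Markers of cell types are given against the same background of 14.6% lower and 15.8% higher among all tested genes. Of 15 villus enterocyte markers, 14 were lower and 0 higher, with a median log2 fold change of -1.16, which is more negative than the -0.73 of the members, and their summed level was 29657 to 42955 CPM in WT and 16146 to 22377 CPM in Rank-knockout. All 15 replication and cell cycle markers were higher, with a median of 1.23 and sums of 587 to 916 CPM in WT and 1482 to 2359 CPM in Rank-knockout. Of 7 Paneth cell markers 4 were higher, and of 7 goblet cell markers 4 were lower and 1 was higher. Among 8 enteroendocrine markers 1 was higher, a share near the background, and none of 4 tuft, 6 T cell, 2 plasma and B cell and 1 stromal marker tested passed, with Cd79a and Tagln at 0. Proximal small intestine markers gave 2 lower of 6 and ileal markers 1 lower of 3, with Fgf15 at 0. The part of these values in the members' values was not tested.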

How the data were processed

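Total RNA of intestinal epithelial cells was made into QuantSeq 3′ libraries. As the study's methods describe, the authors trimmed the reads, removed those from ribosomal DNA and the mitochondrial chromosome, aligned the rest to GRCm38 (mm10 in the labels) and counted sense-strand reads per Ensembl gene with featureCounts. The deposited values are raw counts per gene, which the authors compared with DESeq2. No molecular identifiers were named, so copies made by PCR are counted too and floors cover counting error only. Of 54532 gene identifiers, 54495 matched GENCODE M21 of the same build. No row was a total, and no column was left out.

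Samples were grouped by the genotype label, with 4 libraries each, and the labels give no batch. The test was edgeR 4.0.16 under R 4.3.3 (quasi-likelihood F-test with robust fitting, filterByExpr, TMM scaling, genotype as the only term). Adjusted p values are Benjamini-Hochberg values over the 9855 genes tested, called under 0.05, and SE was obtained from the F statistic. Log2 fold changes are Rank-knockout minus WT. CPM are counts over TMM-scaled library sizes. Levels of neighbouring members up to 200000 bases apart were compared as log2 ratios with a prior count of 0.5, by an exact permutation test (two-sided, 70 assignments of libraries). Values in every library are given for up to 5 members of each family past the threshold and for its most abundant member. Of each pathway list, up to 3 genes with the smallest p are named with their fold changes. Other genes were named after their values were seen. Library totals ran from 1530781 to 4335653, so that genes with few counts are less precise in the 3 shallow WT libraries. No pair of libraries of a genotype agreed within sampling noise (chi-square per degree of freedom of 4.03 or more). The members, lists, motifs and tests were chosen with earlier results of these data known. The script was tested on simulated data. Alternatives changed the scaling (RLE, library totals, or totals without the 50 most abundant genes), the filter (none, or a mean CPM of 5), the tool (DESeq2 1.42.0 or voom of limma 3.58.1), the design (replicate number as a block), the depth (thinned to the shallowest total) and the libraries (each left out in turn and, added after seeing the data, Rank-knockout replicate 1 and WT replicate 2 left out together). Promoter windows came from RefSeq (GRCm38.p6).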

Additional observations from a re-analysis of the deposited data

Results flagged for a closer look

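Of 72 sets of 4 libraries (36 members in 2 genotypes), 4 held a library whose gap to the nearest other exceeded Dixon's 95% critical value, where chance at 1 in 20 gives 3.6. In Rank-knockout, Gstm6 was at 16.8 CPM in replicate 1, with the other libraries at 38.7 to 41.7 CPM, and Ugt2a3 was at 29.5 CPM in replicate 1, with the others at 95.3 to 107 CPM. Gstt3 was at 179 CPM in Rank-knockout replicate 4, with the others at 161 to 163 CPM. In WT, Mgst3 was at 21.4 CPM in replicate 2, with the others at 86.3 to 96.9 CPM.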

How the results depend on the processing

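Under 18 alternatives 6 of the 13 members stayed lower in every one: Gstk1, Gstt1, Sult1b1, Sult1d1, Sult2b1 and Ugt2b34. In 1 or more alternatives 7 members not called in the main fit were lower: Gsta1, Gsta3, Gsta4, Gstp2, Sult6b2, Ugt2a3 and Ugt2b5. Of the values of called members over the alternatives, 199 still passed, 33 no longer did, 2 (Gsta2 and Ugt1a1 after thinning) were too sparse to be tested, none changed sign, and 0 members were higher in any alternative. Library totals moved the counts most, with 2566 genes higher and 859 (8.72%) lower and 8 members lower, and shifted the median log2 change over all genes from 0.02 to 0.22. Without the 50 most abundant genes the median was 0.15 and 10 members were lower, where 1016 genes (10.3%) were lower and 2164 higher. With 1 library left out, 1020 to 1718 genes were higher, 1097 to 1564 were lower and 10 to 16 members were lower. DESeq2 gave 15 of 34 members lower (13.2% of all genes in the same fit), limma-voom 14 of 34 (14.3%), no filter 17 of 36 (6.66%) and thinning 10 of 30 (14.7%).

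The deviations of same-numbered libraries correlated at r = 0.05, 0.15, -0.14 and 0.32, which is not over 0.1 in every pair, so the numbers were not taken to pair the samples. With the replicate number as a block 14 members were lower, Sult6b2 being added, and 1708 genes were higher and 1602 lower.

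These values, none of them called, changed sign. With library totals the log2 fold change was 0.14 for Gstt2, 0.093 for Gstz1 and 0.0075 for Mgst2, and the log2 ratio of summed levels was 0.12 for GST pi and 0.10 for GST zeta. Without the 50 most abundant genes it was 0.074 for Gstt2, 0.025 for Gstz1, 0.056 for the pi sum and 0.036 for the zeta sum. With limma-voom Gstp2 was 0.40 and Mgst3 0.078, and with thinning Ugt1a5 was 0.11. With 1 library left out, Gstp1 ran from -0.21 (without WT replicate 2) to 0.81, Ugt1a5 from -0.61 to 0.053 (without WT replicate 2), Gstz1 from -0.17 to 0.023 (without Rank-knockout replicate 1), the pi sum from -0.41 to 0.21 (without WT replicate 4, and 0.10 without WT replicate 1) and the zeta sum from -0.15 to 0.025 (without Rank-knockout replicate 1). Without both Rank-knockout replicate 1 and WT replicate 2, Gstp1 was -0.11, Gstz1 0.058 and Ugt1a5 0.36. The cause was not tested.

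Depth limits the UGT1A, Gstp2, Gstp3, Gsta2, Gsta3 and Ugt2b36 values, which rest on 230 counts or fewer over all libraries.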
